A study of Danio rerio with 6 samples.

Results

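The genes described here are 8 genes that form 4 neighbouring pairs in the zebrafish genome and whose transcripts were higher in embryos carrying the EWS-FLI1 transgene: pcsk1nl with hdac6, cox4i1l with prkag2a, mtmr4 with hpda, and gyg1a with nck1a. They were taken as every probe set whose platform annotation gives one of these symbols and no other, which gave 9 probe sets for the 8 genes, of 15502 tested probe sets and 8793 measured genes. The pairs were chosen by the measured difference between the same 6 arrays, because both genes were raised, so the differences of the 8 genes are given as a description and carry no test.

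The transgenic embryos carried Tg(HSP:EWS-FLI1), a transgene with a heat shock promoter in front of human EWS-FLI1, and the control embryos were wild-type AB strain without it. Embryos of either kind went through the same heat shock, 30 min at 39 °C, from 50% epiboly onwards, the start of gastrulation, and recovered for 2 h at 28.5 °C until RNA was taken. Each group had 3 Affymetrix arrays, each array holding RNA from a pool of 40 whole embryos. A heat shock promoter is not specific to a cell type. The sources used here do not give the number of transgenic lines, the insertion site or the parents of the pools, and the spread between arrays is that between pools, which the labels name biological replicates. The groups differ in line as well as in the fusion, so line and fusion cannot be told apart.

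EWS-FLI1 is the fusion oncoprotein of Ewing sarcoma, in which the activating part of EWS is joined to the DNA-binding ETS domain of FLI1. In human Ewing cells it binds ETS sites and repeats of the ETS core sequence, near promoters and far from them. Genes that lie side by side can share a promoter region or lie within reach of the same distant element, which is why the size of a change is compared here between neighbours.

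All levels below are log2 RMA values, in which a step of 1 is a doubling, and differences are EWS-FLI1 minus AB control. Over the whole array, 834 of the 15502 probe sets were raised (5.38%) and 1001 fell (6.46%), called by limma at an adjusted p under 0.05. The SE of a probe set's difference is that of the limma fit, which shares its estimate of spread over all probe sets. The median difference over all tested probe sets was 0.00, and the median SD between arrays was 0.0917 in EWS-FLI1 and 0.135 in AB control embryos (n = 3 each). For GAPDH, the 3' control probe set minus the 5' one, a measure of RNA length, gave 1.10 to 1.28 in EWS-FLI1 and 0.69 to 0.92 in AB control arrays, and for acta1 it gave -0.50 to -0.36 in EWS-FLI1 and -0.33 to 0.20 in AB control arrays. All 19 germ layer markers of the gastrula list were measured, and their means lay above the background reference of 4.23, the 95th percentile of 44 control probe sets for bacterial and tag sequences. On their brightest probe sets, 8 of these 19 fell, among them tp63 (-1.33) and gsc (-0.91), and 1, tbxta, rose by 0.54. tbx16 was not called on its brightest probe set (-0.41), while its dimmer one fell by 1.22 (limma adjusted p = 2.6e-04). Some dimmer probe sets of sox2 (-0.15) and sox3 (-0.40) were not called, although their brightest ones fell. The summed level of the 19 was 149.8 to 153.4 in EWS-FLI1 and 157.9 to 164.6 in AB control arrays. Of 12 markers of the enveloping layer, 2 fell, ppl (-0.41) and evpla (-0.52, within the background reference in both groups). Another 2 rose, the keratin genes krt94 by 3.86 and krt18b by 2.51, from AB control means within that reference (3.93 and 3.26). The keratin genes krt4, krt5, krt8, krt17 and krt18a.1 were not called, from -0.27 for krt5 to -0.05 for krt17. The summed level, which includes the rises of krt94 and krt18b, was 97.0 to 99.1 in EWS-FLI1 and 92.6 to 93.4 in AB control arrays. Of 15 markers of the yolk syncytial layer, 3 fell, apoa4b.1 (-1.10), fn1b (-0.80) and fn1a (-0.59 on its brightest probe set). The iron exporter gene slc40a1 rose by 2.69, from an AB control mean within the background reference (3.70). The summed level of these 15 was 122.2 to 122.9 in EWS-FLI1 and 121.9 to 127.2 in AB control arrays. None of 7 germ cell markers was called by limma on its brightest probe set, 2 of them having an unadjusted p under 0.05 (36.1 to 36.5 in EWS-FLI1 and 34.2 to 36.4 in AB control arrays), while a dimmer probe set of piwil1, within the background reference in both groups, rose by 0.31 (limma adjusted p = 0.0493). The part of RNA length and of these layers in the results below was not tested, and in whole embryos more cells of a type and more RNA per cell cannot be told apart.

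The 4 pairs differ in how closely the genes adjoin in the RefSeq gene order of assembly GRCz12tu. mtmr4 and hpda follow each other with no annotated gene between them. Between cox4i1l and prkag2a lies 1 long non-coding RNA gene, LOC110438353. Between pcsk1nl and hdac6 lies lhfpl4b, and between gyg1a and nck1a lies hltf, each 1 protein-coding gene. None of these 3 genes in between had a probe set with a single gene name, so their transcripts were not analysed here. These 3 pairs are neighbours among the measured genes rather than genes that follow each other directly.

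All 8 genes were higher in EWS-FLI1 embryos, by 2.09-fold to 24.1-fold on each gene's brightest probe set. Of the 9 probe sets, 8 were called raised, where 5.38% of all tested probe sets were, and the same 8 had every EWS-FLI1 array above every AB control array, as 14.1% of all tested probe sets had. All 8 were also raised at least 2-fold, as were 1.37% of all tested probe sets. These counts follow from the choice of the genes. The probe set that was not called is the second one of gyg1a.

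In the first pair, pcsk1nl encodes proSAAS, a neuroendocrine precursor protein known in mammals as an inhibitor of prohormone convertase PCSK1. Its probe set read 7.02, 6.71 and 6.74 in EWS-FLI1 embryos, against 4.38, 4.11 and 4.04 in AB controls. The means were 6.82 ± 0.17 in EWS-FLI1 and 4.18 ± 0.18 in AB control embryos (SD, n = 3 each), a difference of 2.65 (SE 0.12) or 6.26-fold. The 2 groups lay far apart and the control mean fell within the background reference, so the fold depends on the background. Its neighbour hdac6 encodes a largely cytoplasmic deacetylase that in mammals acts on tubulin and on the chaperone HSP90. The hdac6 probe set read 8.23, 8.0 and 7.93 in EWS-FLI1 embryos, against 5.01, 5.37 and 5.39 in AB controls. The means of hdac6 were 8.05 ± 0.16 in EWS-FLI1 and 5.26 ± 0.21 in AB control embryos (SD, n = 3 each), a difference of 2.80 (SE 0.13) or 6.95-fold. Here the control embryos were above the background reference on every array.

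In the second pair, prkag2a stood apart from its neighbour. It encodes a gamma subunit of AMP-activated protein kinase, the part of the enzyme that binds AMP, ADP and ATP and so reads the energy state of the cell. Its probe set read 9.21, 9.17 and 9.09 in EWS-FLI1 embryos, against 4.25, 4.90 and 4.54 in AB controls. The means were 9.16 ± 0.06 in EWS-FLI1 and 4.56 ± 0.33 in AB control embryos (SD, n = 3 each), a difference of 4.59 (SE 0.15) or 24.1-fold, which ranked 9 of 15502 probe sets from the highest. The EWS-FLI1 arrays were nearly equal, and the AB control arrays spread more and lay just above the background reference. The neighbour cox4i1l encodes a protein like subunit IV of cytochrome c oxidase, the last enzyme of the respiratory chain. The cox4i1l probe set read 6.56, 6.39 and 6.20 in EWS-FLI1 embryos, against 4.40, 4.48 and 4.18 in AB controls. The means of cox4i1l were 6.38 ± 0.18 in EWS-FLI1 and 4.35 ± 0.16 in AB control embryos (SD, n = 3 each), a difference of 2.03 (SE 0.12) or 4.08-fold, with the controls close to the background reference.

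In the third pair, mtmr4 encodes a myotubularin-related phosphatase, which in human cells removes phosphate from phosphatidylinositol 3-phosphate on endosomes. Its probe set read 8.99, 8.65 and 8.68 in EWS-FLI1 embryos, against 7.59, 7.69 and 7.50 in AB controls. The means were 8.77 ± 0.19 in EWS-FLI1 and 7.59 ± 0.10 in AB control embryos (SD, n = 3 each), a difference of 1.18 (SE 0.11) or 2.27-fold, and both groups were far above the background reference. Its neighbour hpda encodes 4-hydroxyphenylpyruvate dioxygenase, an enzyme of tyrosine breakdown. The hpda probe set read 6.33, 5.95 and 6.36 in EWS-FLI1 embryos, against 4.36, 4.36 and 4.55 in AB controls. The means of hpda were 6.21 ± 0.23 in EWS-FLI1 and 4.42 ± 0.11 in AB control embryos (SD, n = 3 each), a difference of 1.79 (SE 0.13) or 3.46-fold, from controls just above the background reference.

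In the fourth pair, gyg1a encodes a glycogenin, the self-glucosylating protein on which a glycogen particle is started. Its brighter probe set read 8.84, 8.65 and 8.68 in EWS-FLI1 embryos, against 7.45, 8.05 and 7.47 in AB controls. The means were 8.72 ± 0.10 in EWS-FLI1 and 7.66 ± 0.34 in AB control embryos (SD, n = 3 each), a difference of 1.07 (SE 0.16) or 2.09-fold, the smallest among the 8 genes. AB control replicate 2 stood above the other 2 controls but below every EWS-FLI1 array. The second probe set of gyg1a read 4.18, 4.22 and 4.03 in EWS-FLI1 embryos, against 3.95, 3.91 and 4.15 in AB controls, a difference of 0.14 (SE 0.10). Its groups overlapped and both means lay within the background reference, so it gives no reading of the gene's change. The neighbour nck1a encodes an adaptor with SH2 and SH3 domains that links tyrosine-phosphorylated proteins to actin assembly. The nck1a probe set read 5.18, 5.0 and 4.79 in EWS-FLI1 embryos, against 3.63, 3.78 and 3.48 in AB controls. The means of nck1a were 4.99 ± 0.20 in EWS-FLI1 and 3.63 ± 0.15 in AB control embryos (SD, n = 3 each), a difference of 1.36 (SE 0.12) or 2.57-fold, and the control mean lay within the background reference.

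**Figure D1:**
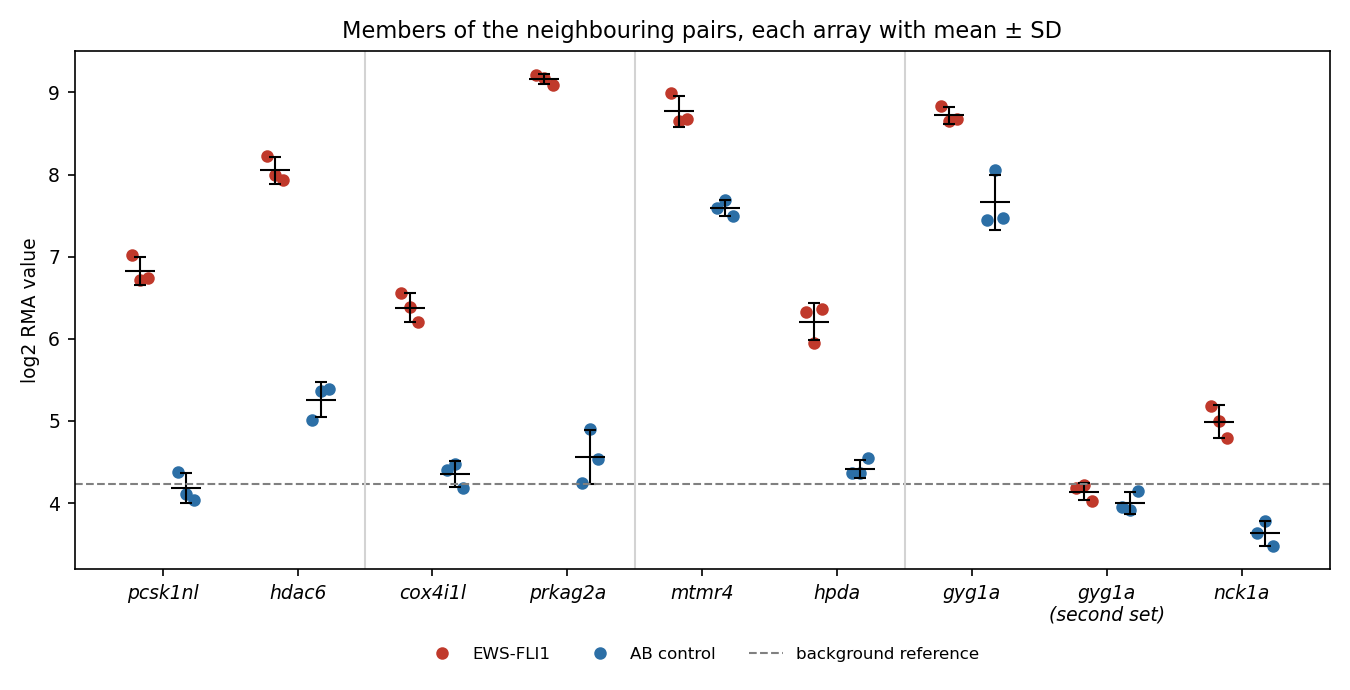
Log2 RMA values of the 9 member probe sets (vertical axis) by gene (horizontal axis), with EWS-FLI1 arrays in red left of AB control arrays in blue, 3 arrays each, black bars for mean ± SD and a dashed line at the background reference of 4.23. Every EWS-FLI1 array lies above every AB control array except at the second probe set of gyg1a.

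Within a pair, sizes were compared as the difference of the first gene minus that of its neighbour, over the arrays. The SE here comes from the spread of the gap between neighbours over the arrays, not from the limma fit. For pcsk1nl minus hdac6 the value was -0.15 (SE 0.23), so the changes of these neighbours differed by less than the error, a ratio of folds of 1.11. For gyg1a minus nck1a it was -0.29 (SE 0.15), a ratio of 1.23. For mtmr4 minus hpda it was -0.61 (SE 0.17), a ratio of 1.53 in favour of hpda. For cox4i1l minus prkag2a it was -2.56 (SE 0.19), so that prkag2a rose 5.91 times as much in fold as cox4i1l. The gene that comes later in the RefSeq order, which runs along the chromosome whatever the strand, had the larger value in all 4 pairs. The order of pcsk1nl and hdac6 turned without AB control replicate 1 (0.08), and that of the other 3 pairs kept its direction without any 1 array. RMA compresses differences of dim probe sets, and the control means of pcsk1nl and nck1a were within the background reference and those of cox4i1l, prkag2a and hpda just above it.

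**Figure D2:**
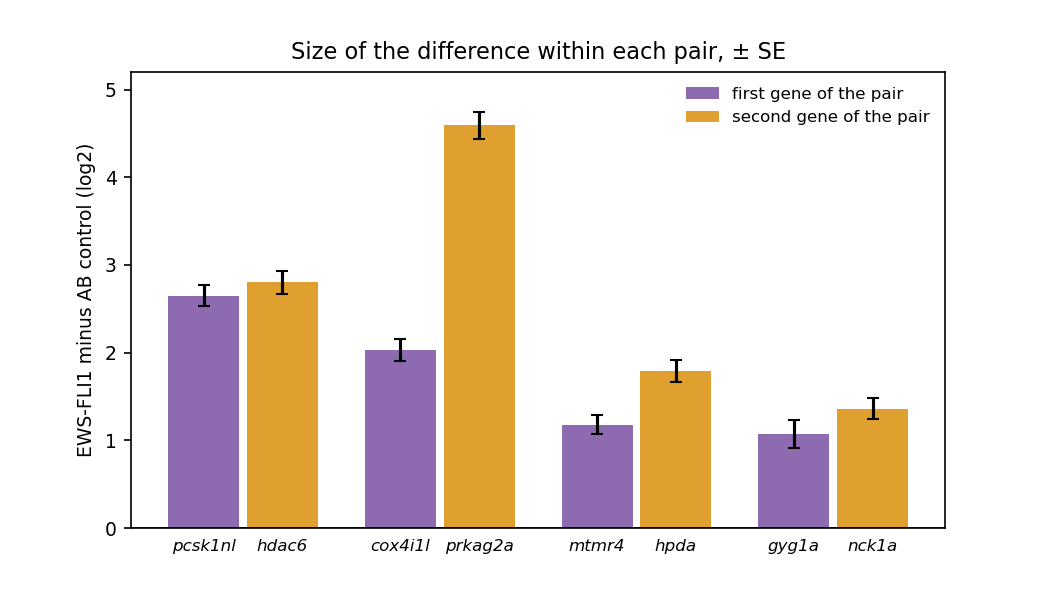
Difference EWS-FLI1 minus AB control in log2 units (vertical axis, bars from 0) for the first gene (purple) and the second gene (orange) of each pair, with error bars of 1 SE. The bars of pcsk1nl (2.65) and hdac6 (2.80) are close, while prkag2a (4.59) stands well above cox4i1l (2.03).

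The genes around the pairs had no part in choosing them and could be tested where they were measured. Within 3 places on either side in the RefSeq order lie 24 genes, of which only 7 were measured, by 9 probe sets. Within these places no gene before cox4i1l, after hpda or before gyg1a was measured. Of the 9 probe sets 1 rose, none fell and 8 were not called by limma, where 5.38% of all tested probe sets rose and 6.46% fell. The exception was nrros, which lies beyond prkag2a with sh3glb1a and 1 long non-coding RNA gene in between, and which in mice is known for its part in microglia. nrros read 4.58, 4.44 and 4.43 in EWS-FLI1 embryos, against 2.71, 2.77 and 2.87 in AB controls, a difference of 1.70 (SE 0.09, limma adjusted p = 1.3e-05). The groups did not overlap, and the EWS-FLI1 mean of 4.48 ± 0.08 was just above the background reference while the AB control mean of 2.78 ± 0.08 lay within it (SD, n = 3 each). The call held in all 11 alternative fits that included the probe set. The gene between prkag2a and nrros, sh3glb1a, which encodes an endophilin B, was bright in both groups (9.47, 9.44 and 9.40 in EWS-FLI1, against 9.29, 9.26 and 9.11 in AB controls). Its difference of 0.22 (SE 0.09) did not pass the test (limma adjusted p = 0.159). So beyond prkag2a nrros was called raised and sh3glb1a was not, while cox4i1l and prkag2a had been chosen for their rise.

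At the pcsk1nl and hdac6 pair, the gene just before it, selenoh, which encodes a selenoprotein, was bright in both groups and differed by 0.00 (SE 0.08, limma adjusted p = 1). ssuh2rs1, 3 places before the pair, read 6.83, 6.63 and 6.86 in EWS-FLI1 embryos, against 6.43, 6.48 and 6.01 in AB controls. Its groups did not overlap, but the difference of 0.47 (SE 0.14) missed the threshold (limma adjusted p = 0.0621, and 0.0311 without AB control replicate 2, with 0.0311 to 0.209 over the alternatives). hcfc1b, a chromatin cofactor gene 3 places after hdac6, gave 0.22, 0.09 and -0.16 on its 3 probe sets, none of them called (lowest limma adjusted p = 0.24). The carbonic anhydrase gene ca4a, 2 places before mtmr4, was within the background reference in both groups and differed by 0.03 (SE 0.10). Beyond nck1a, pccb, which encodes a subunit of propionyl-CoA carboxylase, differed by 0.10 (SE 0.08, limma adjusted p = 0.561).

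A wider window of 8 protein-coding genes on each side, set after these values were seen, held 64 genes, of which 23 were measured. Of their 26 probe sets 2 rose and 1 fell, counts near the 5.38% raised and 6.46% fallen of all tested probe sets. Beside nrros, ywhag1, a gene of the 14-3-3 family 6 places beyond hpda, rose by 0.49 (SE 0.08, limma adjusted p = 0.00436). Its AB control mean of 3.87 lay within the background reference and its EWS-FLI1 mean of 4.37 just above it. The gene tfe3a, of the MiT family of transcription factors and 8 places beyond hdac6, fell by 0.56 (SE 0.12, limma adjusted p = 0.0173). The tfe3a call did not hold without EWS-FLI1 replicate 2 or 3, or AB control replicate 1 (highest limma adjusted p = 0.0734). Around gyg1a and nck1a 3 such genes were measured, ifi30a, pccb and msl2a, and their differences were 0.08 to 0.10.

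**Figure D3:**
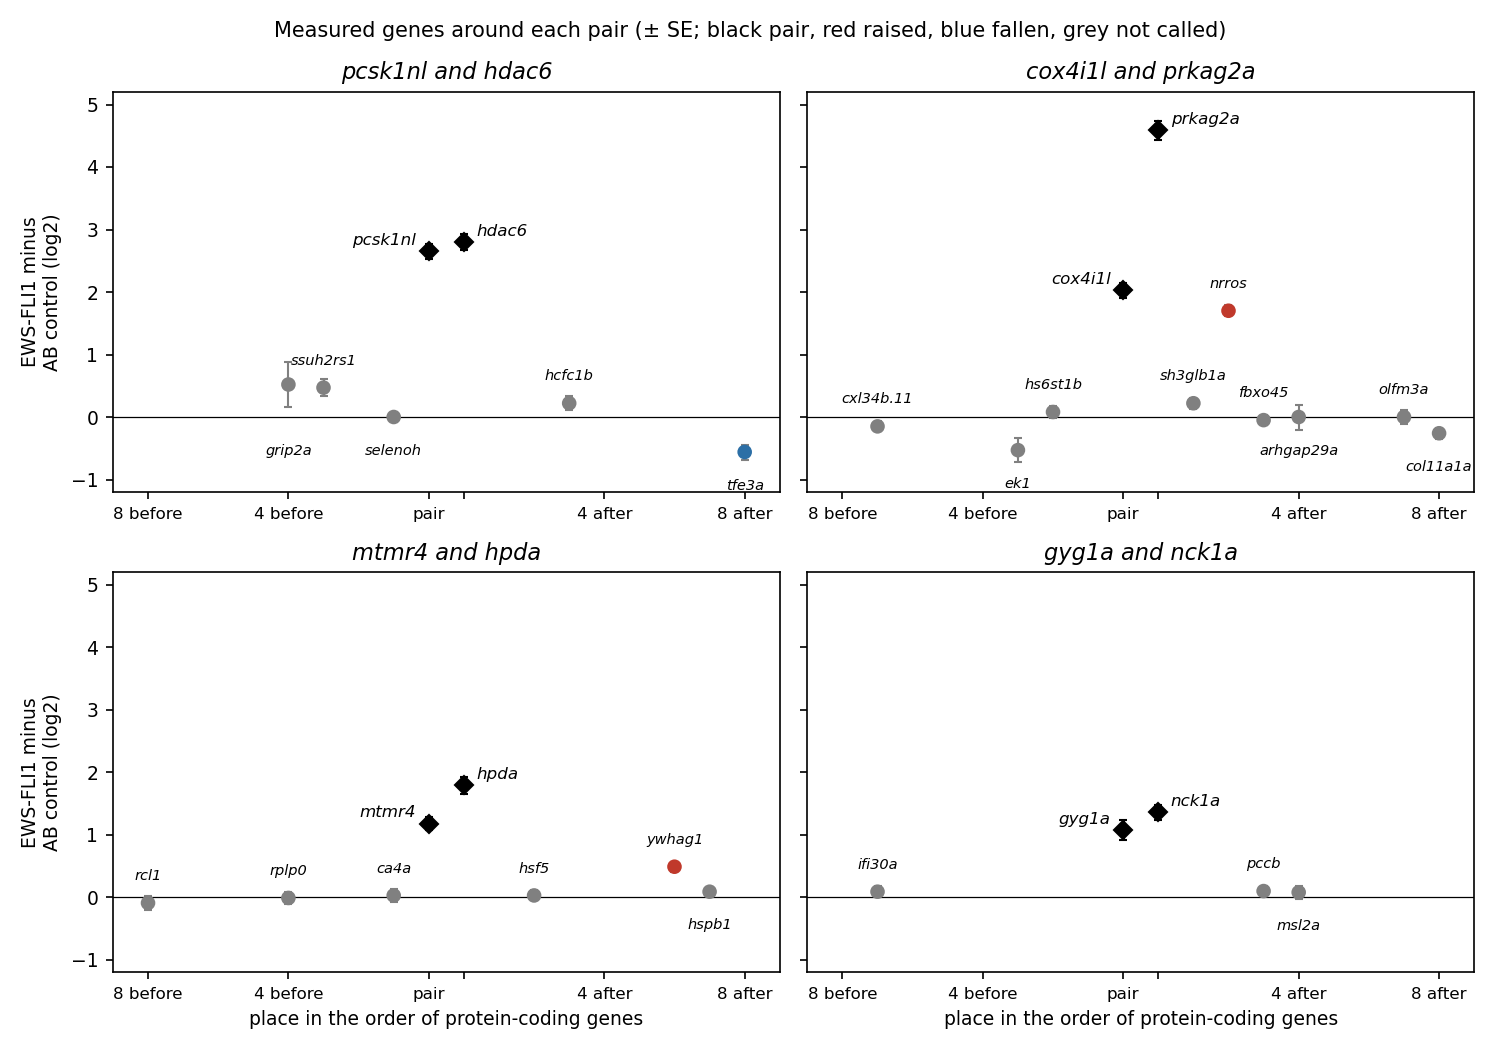
Difference EWS-FLI1 minus AB control in log2 units (vertical axis, ± SE) of the measured genes within 8 protein-coding places of each pair (horizontal axis, place in the gene order, not distance), with the pair in black, raised genes in red, fallen genes in blue and genes that were not called in grey. Where a gene has several probe sets, the one with the highest mean is drawn. nrros at 1.70 is the raised gene nearest to a pair.

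How often neighbours rise together was counted over the whole array. Taking the next measured gene with at most 1 annotated gene between, a definition set after the gaps in these pairs were seen, 4495 pairs could be formed. Both genes were raised in 21 pairs (0.467%) and 1 of them in 407. Counted from each raised gene, the neighbour was also raised in 9.35% of 449 cases, while 5.1% of the genes in these pairs were raised. Without the 4 pairs described here the share was 7.71%, from 17 pairs with both genes raised. Leaving out arrays moved the count of 21 widely, to 11, 10 and 9 without EWS-FLI1 replicates 1, 2 and 3, and to 43 without AB control replicate 2. With no gene at all between, 2800 pairs remained and 11 had both genes raised (5, 5 and 4 without EWS-FLI1 replicates 1, 2 and 3, 6 without AB control replicate 1 and 24 without AB control replicate 2). Across the 4495 pairs the differences of neighbours had a Pearson correlation of 0.10, and 0.07 without the 4 pairs. This is a description over gene pairs that share the same 6 arrays.

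Raised at least 2-fold in both genes were 6 of the 4495 pairs, and the 4 described here are among them. The definition behind the 4495 pairs was set after the gaps in these 4 were seen. With no gene at all between, 2 of 2800 pairs passed, mtmr4 with hpda and rab3c with plk2b. The other 2 of the 6 pairs, named after their values were seen, are zdhhc24 with foxa and rab3c with plk2b. zdhhc24, a palmitoyltransferase gene, averaged 8.70 ± 0.20 in EWS-FLI1 and 6.36 ± 0.41 in AB control embryos (SD, n = 3 each), a difference of 2.34. foxa, a forkhead transcription factor gene, averaged 8.29 ± 0.10 in EWS-FLI1 and 5.41 ± 0.05 in AB control embryos, a difference of 2.88. rab3c, a vesicle GTPase gene, differed by 1.44, and plk2b, a polo-like kinase gene, by 1.12. The AB control mean of plk2b, 3.55, lay within the background reference. As both pairs were picked for their rise, they carry no test. Counted over protein-coding genes with no other such gene between, 4 of 3498 pairs passed. Among them were cox4i1l with prkag2a and mtmr4 with hpda, but not the remaining described pairs. Here egr2b (2.37) with nrbf2b (1.28) was a further pair of this size, in which the call of egr2b was lost without EWS-FLI1 replicate 1. The AB control arrays of egr2b spread widely (4.66, 4.04 and 6.15), and its difference had an SE of 0.44.

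**Figure D4:**
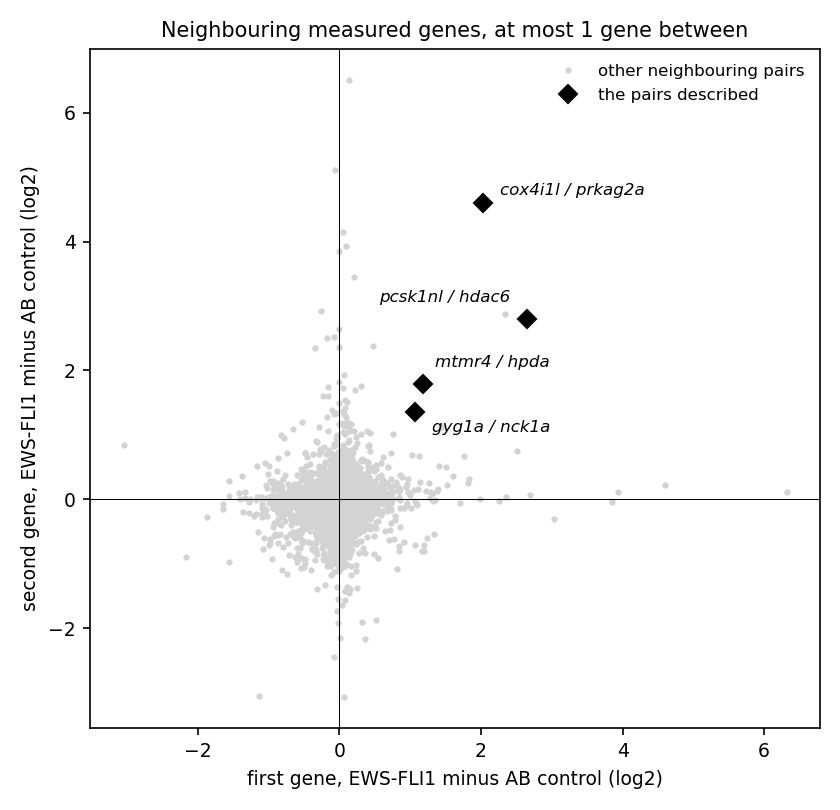
Each point is 1 of 4495 pairs of neighbouring measured genes with at most 1 gene between, with the difference EWS-FLI1 minus AB control (log2) of the first gene on the horizontal axis and of the second on the vertical axis. In 93 pairs only 1 gene was raised at least 2-fold and in 6 both were, and the 4 pairs described (black diamonds) lie to the upper right.

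Relatives of the 8 genes were examined in 8 lists, 1 for the family or pathway of each gene. They held 89 measured genes beside the 8, and 18 of these had a mean within the background reference. Of the 89, 3 rose (3.37%), 6 fell (6.74%) and none rose 2-fold on the brightest probe set of each gene, against 5.65% raised and 7.12% fallen over all genes. Their median difference was -0.00, against 0.00 over all genes, and single genes ran from -1.04 to 0.70. None of the 4 closest relatives that were measured was called. prkag1, another gamma subunit gene of AMP-activated kinase, averaged 7.45 ± 0.13 in EWS-FLI1 and 7.43 ± 0.22 in AB control embryos (SD, n = 3 each), a difference of 0.02 (SE 0.13). hdac10, a related deacetylase gene, differed by -0.00 (SE 0.09). The adaptor genes nck1b and nck2a differed by 0.14 (SE 0.13) and 0.12 (SE 0.16) (lowest limma adjusted p of the 4 = 0.579).

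Of 7 other genes of AMP-activated kinase and its activators none was called by limma (2 at an unadjusted p under 0.05). The largest differences were 0.28 for strada and 0.26 for stk11, both genes of a kinase complex that activates AMP-activated kinase (limma adjusted p = 0.078 and 0.11). Of 19 other cytochrome c oxidase genes, the assembly factor gene cox11 rose by 0.31 (limma adjusted p = 0.047), while the subunit gene cox4i2 fell by 0.51 (limma adjusted p = 0.0213) and the assembly factor gene surf1 fell by 0.37 (limma adjusted p = 0.0477). Of 9 other genes of histone deacetylases and tubulin acetylation, hdac9b fell by 0.51, with both means within the background reference. Of 7 other genes of prohormone processing and of 8 other myotubularin and phosphatidylinositol 3-phosphate genes none was called by limma, none of them having an unadjusted p under 0.05. The largest differences there were 0.33 for scg5, which encodes a chaperone of a prohormone convertase, -0.13 for cpe, -0.32 for mtmr8 and 0.21 for mtmr2.

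In phenylalanine and tyrosine breakdown, the pathway of hpda, 6 other genes were measured, of which 2 had a mean above the background reference. Of the 6, 1 was called. It was fah, the gene of the pathway's last enzyme, which averaged 4.11 ± 0.11 in EWS-FLI1 and 3.59 ± 0.14 in AB control embryos (SD, n = 3 each), both within the background reference, and rose by 0.53 (SE 0.10, limma adjusted p = 0.0125). Among 9 other glycogen genes, the glycogen phosphorylase gene pygl rose by 0.70 (SE 0.14, limma adjusted p = 0.0148) and the muscle-type phosphorylase gene pygmb fell by 1.04 (SE 0.23, limma adjusted p = 0.0214). Other probe sets of pygl gave 0.50 (called) and 0.29 (limma adjusted p = 0.0811), and another of pygmb fell by 0.61. Among 24 other genes of NCK adaptors and actin nucleation, the kinase gene pak1 fell by 0.70 (SE 0.17, limma adjusted p = 0.0293) and arpc4, a subunit gene of the Arp2/3 complex, fell by 0.43 (SE 0.10, limma adjusted p = 0.0304), while none rose. arpc5a, another Arp2/3 subunit gene, was not called on its brightest probe set (-0.23, limma adjusted p = 0.184), but on its other one it averaged 6.79 ± 0.13 in EWS-FLI1 and 7.75 ± 0.20 in AB control embryos (SD, n = 3 each) and fell by 0.96 (SE 0.12, limma adjusted p = 0.00167). All 9 pathway calls on brightest probe sets were lost without at least 1 EWS-FLI1 array. cox11 and surf1 lost theirs without any 1 of the 6 arrays (highest limma adjusted p = 0.171 and 0.186). Without any 1 EWS-FLI1 array, pygl lost its call, as did pygmb, pak1 and arpc4, which also lost it without AB control replicate 1, and pak1 without AB control replicate 3 (highest limma adjusted p = 0.128). cox4i2 and hdac9b lost theirs without EWS-FLI1 replicate 1 or 2, and fah without EWS-FLI1 replicate 1 or 3 (highest limma adjusted p = 0.084). With the replicate block, cox11, surf1 and arpc4 were not called, and cox11 and surf1 were also not called with the trended and robust prior or with array weights, nor surf1 after quantile normalization.

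The genes whose 6 values most resembled each member were found by the root mean square difference after subtracting each probe set's control mean, over 8792 other genes. This measure includes the difference by which the pairs were chosen, so the ranks of the neighbours are a description only. For pcsk1nl the nearest genes were foxa (0.19) and dhx32a (0.21), and its neighbour hdac6 ranked 6 at 0.25. For hdac6 they were dhx32a and slc40a1, both at 0.16, with pcsk1nl ranked 7. For prkag2a they were ppp1r13ba (0.30) and aanat2 (0.39), while cox4i1l ranked 37 at 1.82. For cox4i1l they were wnt2ba (0.10) and hlx1 (0.16), and prkag2a ranked 8329. The AB control means of slc40a1 (3.70), ppp1r13ba (3.26), wnt2ba (2.88) and hlx1 (3.77) lay within the background reference. For mtmr4 the nearest were slc35e1 and strbp, both at 0.12, and hpda ranked 263. That probe set of strbp had both means within the background reference (3.71 in EWS-FLI1 and 2.63 in AB control embryos), and the brightest of its 3 probe sets was not called (-0.04, limma adjusted p = 0.932). For hpda they were myoz1b (0.12) and svila (0.14), and mtmr4 ranked 70. That probe set of svila, which rose by 1.81, had an AB control mean within the background reference (3.81), and its brighter probe set rose by 2.36. The AB control mean of myoz1b, 2.73, also lay within the background reference. For gyg1a they were si:ch211-12h2.8 and zgc:171474, both at 0.10, with nck1a ranked 68, and for nck1a they were rpain (0.08) and itga5 (0.11), with gyg1a ranked 39. The neighbour was the nearest gene for none of the 8. The second probe set of gyg1a was nearest to cdc42 and gtf3c5 (0.03 each), on probe sets that were not called. Another probe set of cdc42 rose by 0.90 (limma adjusted p = 6.1e-04).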

How the data were processed

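The deposited values are log2 RMA values made by the authors, 1 per probe set and array, with RMA, affy and R 2.2.0 named per the submitters' processing notes. The log base was inferred from the range of 1.58 to 13.46. Per the labels' protocols, 2.5 µg of total RNA per pool was primed with oligo(dT). The table holds 15617 probe sets, and its 115 manufacturer controls were not tested. Annotation gave 1 gene for 10795 probe sets and several for 135, and 4572 stay unnamed. RefSeq names and gene order (GRCz12tu, 10711 matched by Entrez identifier) served without coordinates. limma 3.58.1 (R 4.3.3) gave a two-sided moderated test of the 2 groups for all 15502 remaining probe sets at once, with Benjamini-Hochberg adjustment over them. Per gene the probe set with the highest mean was used in lists and pairs. The fit was tested on simulated data. Arrays carry no read depth, and 3 per group limits precision. Same-numbered arrays did not deviate together (correlations -0.082, -0.099 and -0.076). Python 3.11.15, pandas 2.3.3 and matplotlib 3.10.9 were used for tables and plots.

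Members, lists and alternatives were chosen with earlier results of these data known. Named are all members, the measured genes within 3 places of each pair, up to 4 called genes per pathway list (or the 2 largest differences), fixed close relatives and the 2 nearest genes by profile. Of 10 relatives 4 were measured. Marker lists are given as counts and summed levels, with some of their genes named. Tried as alternatives were the replicate number as a block, a filter on dim probe sets, 2 scalings, another prior, array weights, leaving out each array, other probe set choices and other definitions of neighbours. Promoter sequences were not used here.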

Additional observations from a re-analysis of the deposited data

How the results depend on the processing

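The 8 member probe sets called raised stayed at 8 in each of the 12 alternative fits. Without 1 array in turn the differences ran from 2.55 to 2.75 for pcsk1nl, 2.67 to 2.86 for hdac6, 1.94 to 2.12 for cox4i1l, 4.44 to 4.76 for prkag2a, 1.07 to 1.24 for mtmr4, 1.72 to 1.92 for hpda, 0.96 to 1.26 for gyg1a and 1.26 to 1.46 for nck1a. Within pairs they ran from -0.29 to 0.08 for pcsk1nl minus hdac6 and from -2.67 to -2.38 for cox4i1l minus prkag2a. They ran from -0.72 to -0.49 for mtmr4 minus hpda and from -0.40 to -0.17 for gyg1a minus nck1a. Counts over the array ran from 450 to 1023 raised and 433 to 1286 fallen, adjacent pairs with both raised from 4 to 24, and neighbouring pairs with at most 1 gene between from 9 to 43, with the lowest counts each time without an EWS-FLI1 array and the highest without AB control replicate 2; the cause was not tested. With the replicate block 705 probe sets rose and 871 fell, and it changed no call of the members or of the genes within 3 places of them; the arrays share only a number. nrros kept its call in the 11 alternatives that held it (1.65 to 1.74, limma adjusted p from 3.7e-06 to 2.7e-04) and is dropped with the dim probe sets. Differences near 0 changed sign without being called: selenoh ran from -0.02 to 0.03 and was -0.00 after quantile normalization, and ca4a ran from -0.02 to 0.13. Dim controls limit the folds of pcsk1nl, nck1a, nrros, ywhag1 and plk2b, among others, and 3 arrays a group limit the errors.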
